A study of Mus musculus with 4 samples.

Results

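The genes of chromosome architecture followed by name were Ctcf, the cohesin subunit genes Smc1a, Smc3, Rad21, Stag1 and Stag2, and the cohesin regulator genes Nipbl, Wapl, Pds5a and Pds5b. They are 10 of the 45706 genes in the count table, each matched by 1 Ensembl identifier, and all 10 passed the filter on low counts. Messenger RNA was sequenced in V6.5 mouse embryonic stem cells, an established line, in 2 libraries 24 h after doxycycline was added and in 2 libraries at 0 h. The labels give the 24 h libraries the genotype KLF KO and the 0 h libraries the genotype KLF WT. Doxycycline switches on Cas9 from an integrated lentiviral vector in picked clonal lines whose guides cut KLF4 only, or KLF2, KLF4 and KLF5 together, per the labels. The titles call all 4 libraries TKO, and name the 0 h libraries as WT and the 24 h libraries as KLF4 KO, while the genotype labels say only KLF. The labels thus do not settle whether KLF4 alone or all 3 genes were targeted, or which clone each library came from, and all 4 libraries are labelled as grown in 2i, the combination of a MEK and a GSK3 inhibitor, on irradiated feeder cells. The effects of the drug, of DNA cutting, of KLF protein loss and of a further day in culture cannot be told apart in this contrast.

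Cohesin is a ring-shaped complex that extrudes chromatin into loops and also holds sister chromatids together. SMC1A and SMC3 form the arms of the ring, RAD21 closes it, and STAG1 or STAG2 binds to RAD21. NIPBL loads cohesin and drives its motor, WAPL and the PDS5 proteins help to release it from chromatin, and CTCF is the DNA-binding protein at which extruded loops are halted. Embryonic stem cells divide rapidly and express these genes at a high level, and KLF4 is known as a pluripotency factor that binds many enhancers in them.

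The comparison asks whether transcripts of these loop proteins differ after induction of the KLF knockout. With all 4 libraries, 0 of the 10 genes were called, 0 higher and 0 lower, by the quasi-likelihood test of edgeR (Benjamini-Hochberg adjusted over every gene tested, threshold 0.05). In the same test 6.8% of all 18005 genes were called, 4.15% higher and 2.65% lower. Before adjustment, 1 of the 10 (Rad21) had a p under 0.05, as did 25.8% of all genes. DESeq2's Wald test called 0 of the 10 (11.5% of the 17306 genes to which it gave an adjusted p) and limma voom 0 (6.03%). The log2 fold changes of the 10 genes ran between -0.25 for Rad21 and 0.23 for Stag1, with a median of 0.09 beside -0.01 over every gene tested. With 0 h replicate A left out that median was -0.05, and with 0 h replicate B left out it was 0.24. In bulk RNA, fewer cells of a type and less RNA per cell cannot be told apart.

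Counting error was small for these genes: the lowest count of any of them in any library was 3240 (Stag2), where it is about 1.76%. The libraries held 46031578 to 52412844 counts. Each group held only 2 libraries, so the test rests on little replication. Over 18005 genes, replicates A and B differed on the log2 scale with an SD of 0.336 at 24 h, and of 0.467 at 0 h. The deviation of 0 h replicate A from the mean of the libraries followed the GC content of the transcripts (r = 0.477 across genes, with -0.162 and -0.223 in the 24 h libraries and -0.192 in 0 h replicate B; genes are not independent replicates). All 10 genes lie below the median GC content of the genes tested (49.9%), between 38.1% for Stag2 and 46.9% for Smc1a. The 10 genes are therefore also given with that trend removed and without each 0 h library.

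CTCF binds insulator and loop-anchor sites through its zinc fingers. Ctcf (ENSMUSG00000005698, GRCm38 chromosome 8, 105636568 to 105682922) had 182.6 and 178.5 CPM in 24 h replicates A and B, against 204.9 and 209.5 CPM in 0 h replicates A and B. Both 24 h libraries lay below both 0 h libraries. CPM are counts scaled to a common library total by TMM. The means were 180.5 ± 2.88 CPM at 24 h and 207.2 ± 3.3 CPM at 0 h (SD, n = 2 each). The log2 fold change was -0.20 (95% interval -0.42 to 0.02, adjusted p = 0.235 in edgeR's test), so the difference did not pass the test. Of the exon length of Ctcf, 7.61% overlaps the noncoding gene Gm5914 and 2.35% overlaps Agrp, both on the other strand. The strand setting of the counting is not given in the sources used here, and the counts are uncertain to that extent.

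RAD21 is the subunit that links the SMC heads and is cut by separase in mitosis. Rad21 (chromosome 15, 51962240 to 51991747) had 345.5 and 346.7 CPM in the 24 h libraries, against 394.2 and 427.8 CPM in the 0 h libraries. The groups did not overlap, and the 24 h libraries agreed more closely than the 0 h libraries. The means were 346.1 ± 0.887 CPM at 24 h and 411 ± 23.8 CPM at 0 h (SD, n = 2 each). The log2 fold change was -0.25 (95% interval -0.48 to -0.02, unadjusted p = 0.0364, adjusted p = 0.165 in edgeR's test). This was the largest absolute fold change of the 10 genes, yet 49.0% of all genes tested had an absolute fold change no larger.

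Ctcf and Rad21 stood below 0 h under each of the 13 alternatives run. The log2 fold change lay between -0.25 and -0.14 for Ctcf and between -0.33 and -0.19 for Rad21. Both were called with the trend on GC content and length removed, a fit that called 24.8% of all genes. They were also called when the replicate letter was added to it as a block (30.2% of all genes). Their other calls came only from fits with a single 0 h library. After removal of the trend on GC content and length, 2 of the 10 (Rad21 and Ctcf) were called lower in edgeR's test and 0 higher, where 12.2% of all genes were called lower and 12.6% higher. Corrected for that trend, Rad21 was at 339.6 and 334.7 CPM at 24 h, against 430.9 and 418.0 CPM at 0 h. Its log2 fold change was then -0.33 (95% interval -0.44 to -0.22, adjusted p = 0.00274 in edgeR's test). Corrected Ctcf was at 181.3 and 174.8 CPM at 24 h, against 215.8 and 207.3 CPM at 0 h, with a log2 fold change of -0.25 (95% interval -0.37 to -0.13, adjusted p = 0.0134 in edgeR's test). The trend was fitted on the same 4 libraries, so its removal can also take away a difference that follows GC content between the times.

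**Figure D1:**
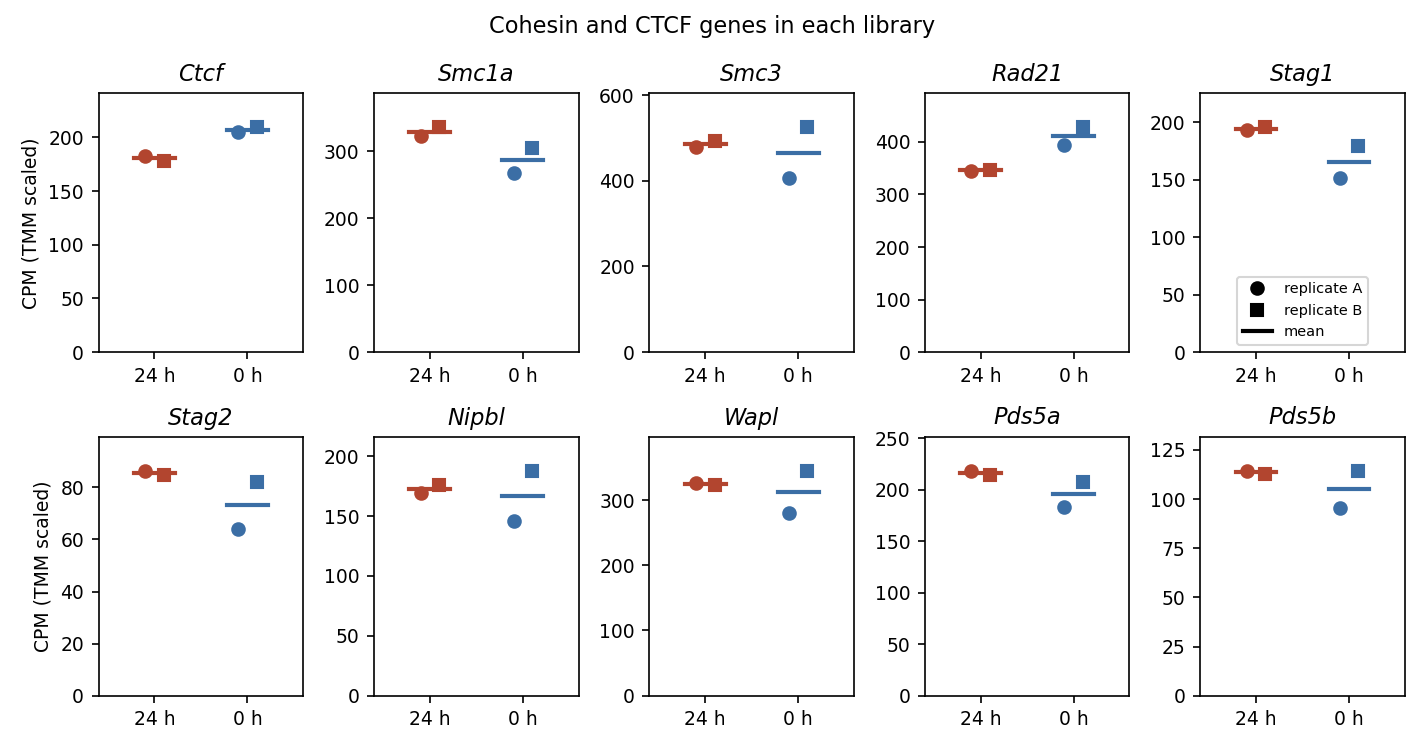
CPM (TMM scaled, linear axis from 0) of each of the 10 genes in the 24 h libraries (red) and the 0 h libraries (blue), with circles for replicate A, squares for replicate B and a bar at the mean. The 24 h replicates lie close together, while 0 h replicate A lies below 0 h replicate B for all 10 genes, and Ctcf and Rad21 are lower at 24 h than in both 0 h libraries.

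The SMC genes encode the long coiled-coil ATPases of the ring. Smc1a (chromosome X, 152016428 to 152062694) had 322.4 and 335.6 CPM in the 24 h libraries, against 267.9 and 305.1 CPM in 0 h replicates A and B. The groups did not overlap, but the 0 h libraries differed from each other by more than the gap between the groups. The log2 fold change was 0.20 (95% interval -0.05 to 0.45, adjusted p = 0.28 in edgeR's test). Smc3 (chromosome 19, 53600398 to 53645833) had 479.5 and 493.5 CPM at 24 h, between the 406.2 CPM of 0 h replicate A and the 524.8 CPM of 0 h replicate B. Its log2 fold change was 0.06 (95% interval -0.25 to 0.38, adjusted p = 0.794 in edgeR's test).

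Promoters of 7 of the 10 genes were in the RefSeq table used (GRCm38.p6), from 250 bases before to 50 bases after the start, with none for Rad21, Stag2 and Nipbl. The promoters of Ctcf and Smc1a are shown because their groups did not overlap and their values lay in opposite directions. Capitals mark matches to GGGNGNGG, a GC-rich pattern of the kind bound by KLF and SP factors, on either strand.
Ctcf (chr8:105636288-105636587, plus strand): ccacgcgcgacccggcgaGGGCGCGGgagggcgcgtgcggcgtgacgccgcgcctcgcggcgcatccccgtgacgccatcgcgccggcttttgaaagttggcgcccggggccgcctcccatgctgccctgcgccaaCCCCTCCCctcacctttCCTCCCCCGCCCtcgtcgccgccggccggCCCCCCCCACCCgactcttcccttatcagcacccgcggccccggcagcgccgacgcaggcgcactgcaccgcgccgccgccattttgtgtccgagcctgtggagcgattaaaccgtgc
Smc1a (chrX:152016178-152016477, plus strand): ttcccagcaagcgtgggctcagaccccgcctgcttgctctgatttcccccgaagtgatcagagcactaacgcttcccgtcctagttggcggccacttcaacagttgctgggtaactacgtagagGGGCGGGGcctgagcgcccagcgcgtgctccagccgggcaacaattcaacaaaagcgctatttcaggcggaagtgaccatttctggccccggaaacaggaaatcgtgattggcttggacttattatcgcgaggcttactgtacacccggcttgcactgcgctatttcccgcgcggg
Ctcf held 6 matches, counting overlapping ones, and Smc1a held 1. Stag1 and Pds5b held 2 each, Wapl and Smc3 held 1 each, and Pds5a held 0. Stag1 and Pds5a, whose 24 h libraries also lay above both 0 h libraries, are not shown. Whether matches go with the direction of change was not tested. Of the 7 promoters 6 held a match, beside 49.5% of all 32851 promoters in the table. The narrower pattern GGGNGTGG was in 0 of the 7 (17.6% of all promoters), CACCC in 4 (57.5%), the GC box GGGCGG in 7 (35.7%) and CCAAT in 4 (37.4%). A consensus pattern of NRF1 was in 0 of the 7 (0.971% of all promoters) and one of YY1 in 0 (0.633%). All patterns were searched on both strands, and matches to them can overlap each other. These promoters are GC-rich, between 58.3% (Smc1a) and 80.3% (Pds5a), and a match describes the letters, not binding.

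STAG1 and STAG2 are alternative subunits of cohesin in somatic cells, and CTCF contacts the complex through them. Stag1 (chromosome 9, 100597798 to 100959375) had 193.2 and 195.5 CPM in the 24 h libraries, against 151.6 and 179.6 CPM in 0 h replicates A and B. Stag2 (chromosome X, 42149317 to 42277185) had 86.40 and 84.85 CPM at 24 h, against 64.02 and 82.12 CPM at 0 h. In both genes the 24 h libraries lay above both 0 h libraries, with the lowest value in 0 h replicate A. The log2 fold change was 0.23 for Stag1 (95% interval -0.04 to 0.50, adjusted p = 0.25) and 0.23 for Stag2 (95% interval -0.09 to 0.55, adjusted p = 0.333), both in edgeR's test. Of the exon length of Stag2, 0.338% overlaps a gene on the other strand.

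NIPBL and WAPL act in opposite directions on the time that cohesin spends on chromatin. Nipbl (chromosome 15, 8290617 to 8444463) had 168.9 and 175.9 CPM in the 24 h libraries, against 145.9 and 187.9 CPM in 0 h replicates A and B. Wapl (chromosome 14, 34673928 to 34747983) had 326.3 and 322.7 CPM at 24 h, against 280.7 and 344.9 CPM at 0 h. For both genes the 24 h values lay between the values of the 0 h replicates. The log2 fold change was 0.05 for Nipbl (95% interval -0.27 to 0.37, adjusted p = 0.856) and 0.05 for Wapl (95% interval -0.23 to 0.34, adjusted p = 0.813) in edgeR's test.

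PDS5A and PDS5B bind RAD21 and take part in both the release and the stabilisation of cohesin. Pds5a (chromosome 5, 65605721 to 65698273) had 218.3 and 214.5 CPM in the 24 h libraries, against 183.0 and 207.7 CPM in 0 h replicates A and B. Pds5b (chromosome 5, 150673739 to 150810690) had 114.4 and 112.8 CPM at 24 h, against 95.57 and 114.3 CPM at 0 h. Pds5a was higher in both 24 h libraries than in both 0 h libraries, and Pds5b overlapped 0 h replicate B. The log2 fold change was 0.15 for Pds5a (95% interval -0.10 to 0.40, adjusted p = 0.414) and 0.11 for Pds5b (95% interval -0.17 to 0.39, adjusted p = 0.579) in edgeR's test. Pds5a shares 1.32% and 0.615% of its exon length with 2 TEC-type genes of the annotation on the other strand.

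Over the 10 genes, the groups did not overlap for 6: 4 were above 0 h (Smc1a, Stag1, Stag2 and Pds5a) and 2 below it (Ctcf and Rad21). Over all genes tested, 29.3% lay above and 29.5% below in this way, so that such a pattern was common in these libraries. Over the 10 intervals, the highest upper end was a ratio of 24 h to 0 h of 1.47 (Stag2) and the lowest lower end a ratio of 0.719 (Rad21).

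**Figure D2:**
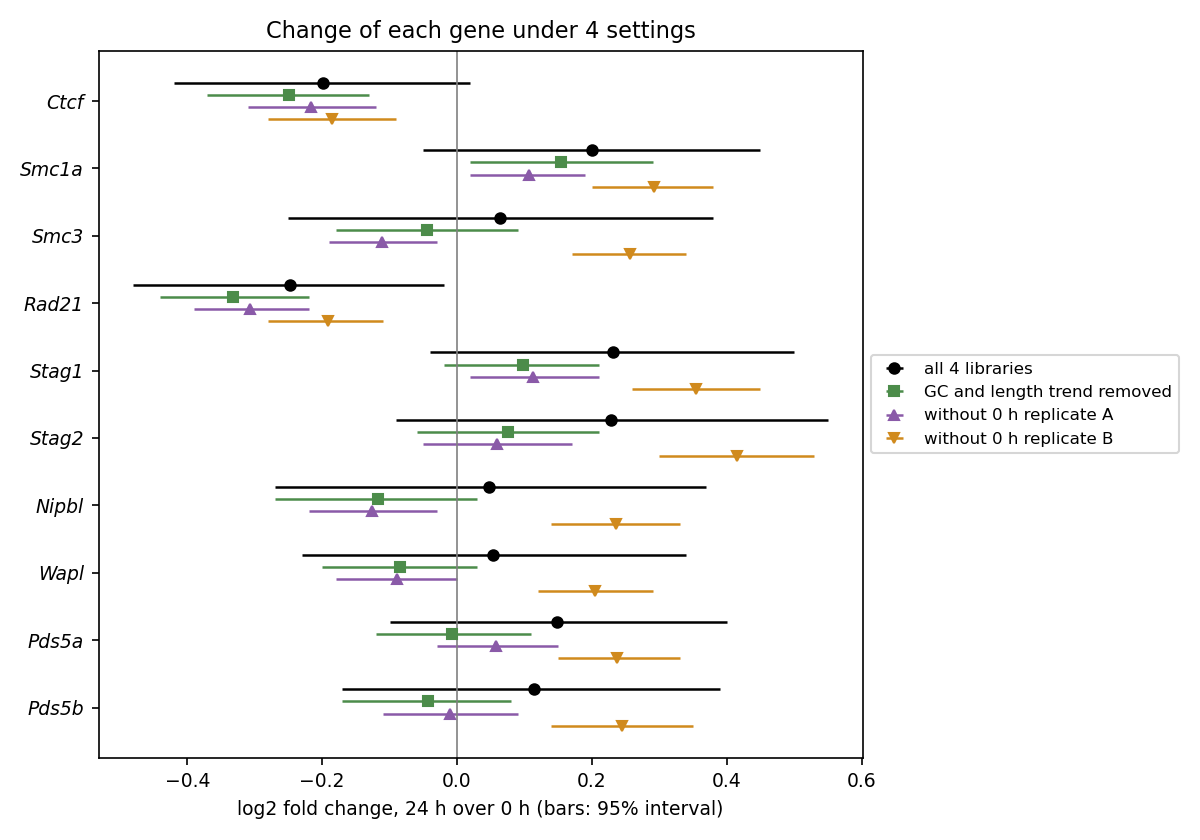
Log2 fold change (24 h over 0 h) of each gene with its 95% interval from edgeR's quasi-likelihood fit, for all 4 libraries (black), with the GC and length trend removed (green), without 0 h replicate A (purple) and without 0 h replicate B (orange). Ctcf and Rad21 are below 0 in all 4 settings, while Smc3, Nipbl, Wapl and Pds5b are below 0 without 0 h replicate A and above 0 without 0 h replicate B.

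The direction of 4 of the other 8 genes turned with the 0 h library used. With 1 library left out, its group has a single sample, whose spread the fit takes from the other group, so those p-values leave out that group's own spread. Without 0 h replicate A, edgeR's test called 1 of the 10 higher (Smc1a, log2 fold change 0.11) and 4 lower, where 16.5% of all genes were called higher and 15.8% lower. The 4 were Ctcf (log2 fold change -0.22), Rad21 (-0.31), Smc3 (-0.11) and Nipbl (-0.13). Without 0 h replicate B, 8 of the 10 were called higher and 2 lower, where 23.2% of all genes were called higher and 27% lower. Smc3 then had a log2 fold change of 0.26, Nipbl 0.236, Wapl 0.205 and Pds5b 0.245, and Stag2 had the largest at 0.415. Wapl (-0.09) and Pds5b (-0.01) had the opposite sign without 0 h replicate A.

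The 0 h replicates differed in these genes too, and whether the difference followed GC content among the 10 genes was not tested. On the log2 CPM scale, 0 h replicate A minus 0 h replicate B lay between -0.37 (Smc3) and -0.03 (Ctcf). For genes with a mean GC content of 41% the median difference between the 0 h replicates was -0.28, and for genes with 47% it was -0.07. The difference between the 24 h replicates lay between -0.06 and 0.03 for the 10 genes. With the trend removed, Stag2 was at 82.86 and 79.44 CPM at 24 h, against 76.52 and 77.55 CPM at 0 h. Its log2 fold change was 0.075 in that fit (95% interval -0.06 to 0.21, adjusted p = 0.383 in edgeR's test).

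**Figure D3:**
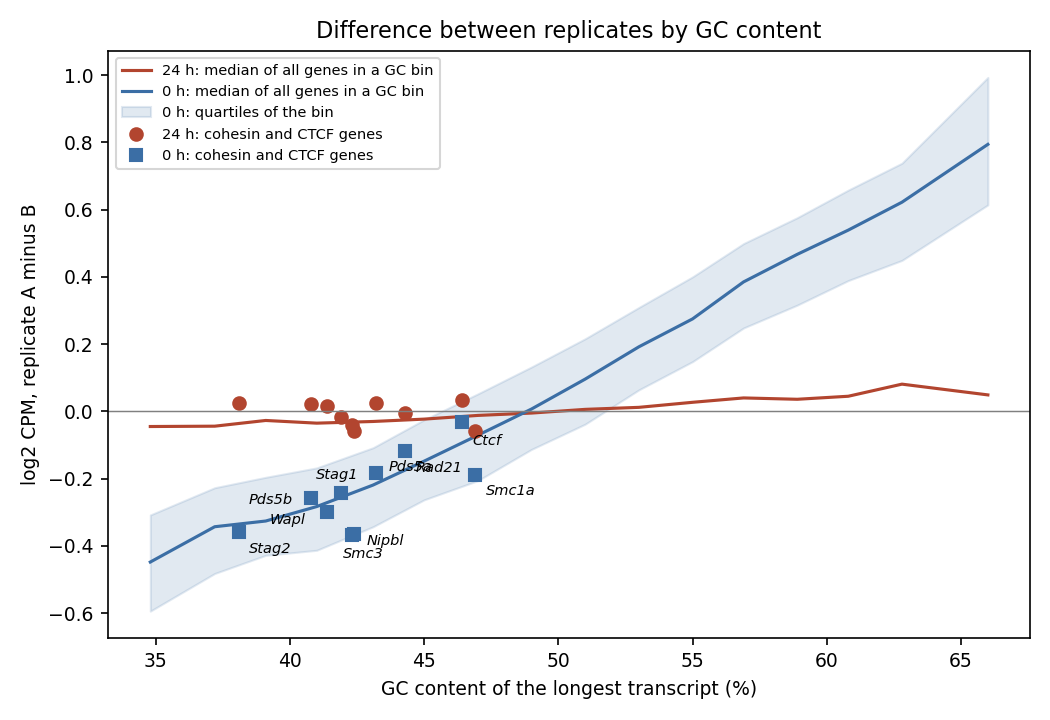
Log2 CPM of replicate A minus replicate B against the GC content of the longest transcript (%), at 24 h (red) and at 0 h (blue). Lines are medians over all genes with a mean of at least 1 CPM in bins of GC content, the shaded band runs between the quartiles at 0 h, and points are the 10 genes, whose 0 h differences lie between -0.37 and -0.03.

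Levels were compared between genes as TPM, which are counts per length of annotated exon scaled to a common total. At 0 h the order was Rad21 (293.6 ± 18.4 TPM), Smc3 (254.0 ± 47.0), Smc1a (150.2 ± 14.5), Wapl (142.8 ± 21.5), Ctcf (128.9 ± 2.7), Nipbl (53.55 ± 9.78), Stag1 (42.51 ± 5.29), Pds5b (32.25 ± 4.23), Pds5a (30.54 ± 2.89) and Stag2 (26.71 ± 4.81; mean TPM ± SD, n = 2). The 0 h values of Rad21 and Smc3 overlapped between libraries, as did those of Smc1a and Wapl, Wapl and Ctcf, Pds5b and Pds5a, and Pds5a and Stag2. Within each 0 h library, the first-named gene of each pair was still the higher one. The gap could be small, as with 127.6 TPM for Wapl and 127 TPM for Ctcf in 0 h replicate A. Smc3 (271.7 TPM) stood above Rad21 (253.1 TPM) at 24 h, and the other 8 genes kept their places in the order of means. Rad21 was above 97.1% of all genes tested in its TPM level at 0 h, and Stag2 was above 66.3%. With the longest transcript in place of all annotated exons, Pds5a was at 52.79 TPM at 0 h and stood above Nipbl and Pds5b, so that its place depends on which exons are taken as its length. Ctcf (132.2 TPM) then stood above Wapl (119.0 TPM) at 0 h, and Stag1 (64.65 TPM) above Nipbl (42.78 TPM).

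**Figure D4:**
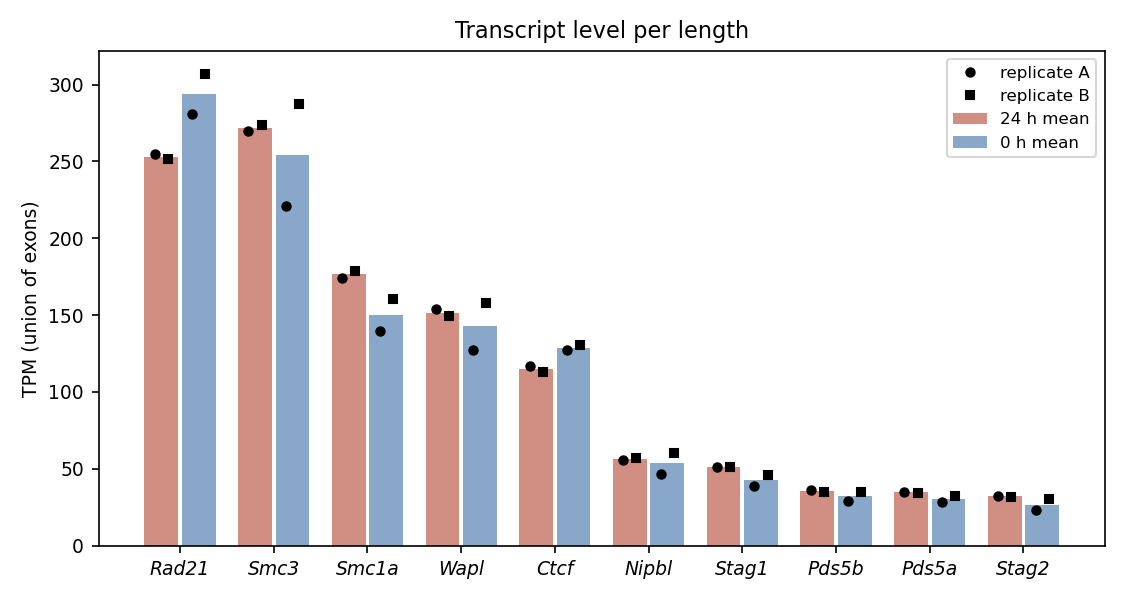
TPM (counts per length of the union of annotated exons, linear axis from 0) of the 10 genes in order of the 0 h mean, with bars for the mean of the 24 h libraries (red) and the 0 h libraries (blue), circles for replicate A and squares for replicate B. Rad21 and Smc3 are highest, and Pds5b, Pds5a and Stag2 are lowest and close to each other.

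Ratios of levels within a library remove the scaling of libraries but not the GC trend. The ratio of Rad21 to Smc3 was 0.943 and 0.920 in the 24 h libraries, against 1.27 and 1.07 in 0 h replicates A and B. The ratio of Smc3 to Smc1a was 1.55 and 1.53 at 24 h, against 1.58 and 1.79 at 0 h. In both ratios the 24 h libraries lay below both 0 h libraries. For the levels of single genes, the groups did not overlap in 58.8% of all genes tested. No such share was computed for ratios. With 2 against 2 libraries an exact 2-sided permutation test cannot give a p under 0.33, so the ratios were not tested.

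The other ratios overlapped between the times. The ratio of Stag2 to Stag1 was 0.637 and 0.618 in the 24 h libraries, against 0.601 and 0.651 at 0 h. The ratio of Wapl to Nipbl, the release factor over the loader, was 2.75 and 2.61 at 24 h, against 2.74 and 2.61 at 0 h. The ratio of Ctcf to Rad21 was 0.460 and 0.448 at 24 h, against 0.452 and 0.426 at 0 h. The ratio of Pds5a to Pds5b was 0.971 and 0.968 at 24 h, against 0.974 and 0.925 at 0 h, and its size rests on the exon length (a mean of 0.949 at 0 h, and 1.55 with the longest transcripts). The 0 h means of the other ratios moved less: Stag2 to Stag1 from 0.626 to 0.441, Ctcf to Rad21 from 0.439 to 0.528, and Wapl to Nipbl from 2.67 to 2.79.

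The other genes of the pathway were taken from 4 lists made by role, and 1 of the 39 genes tested was called, where 6.8% of all genes were. Of 12 cohesin cofactors and germline subunits, 11 were tested, 1 rose, 0 fell and 10 did not pass, with a median log2 fold change of 0.23. Rec8, the RAD21 counterpart of meiotic cohesin, had 61.70 and 63.87 CPM in the 24 h libraries, against 33.73 and 30.21 CPM at 0 h. It rose by 0.97 on the log2 scale (adjusted p = 0.00842 in edgeR's test) and was called higher in all 13 alternatives, between 0.89 and 1.14. Rad21l, another meiotic relative of Rad21, was at 0 or nearly so in every library and was not tested.

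Of 11 other looping factors, 0 passed edgeR's test and 6 had an unadjusted p under 0.05 (25.8% of all genes did), with a median log2 fold change of -0.24 and 7 values below 0. Of these 7, Maz (63.6% GC), Ldb1 (57.9%) and Patz1 (56.9%) were highest in 0 h replicate A, the library with the GC trend. Zfp143 and Satb1, both at 44.8% GC, were highest in 0 h replicate B. The part of the GC trend in that median was not tested. Ldb1, which joins LIM-domain factors at enhancers and promoters, had 176.3 and 169.1 CPM at 24 h, against 297.9 and 226.4 CPM in 0 h replicates A and B. Its log2 fold change was -0.60 (adjusted p = 0.0519 in edgeR's test) and lay between -0.79 and -0.38 over the 13 alternatives, 9 of which called it lower. Of the exon length of Ldb1, 3.84% overlaps Pprc1, which runs in the opposite direction, so the count of Ldb1 is uncertain to that extent.

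Of the 8 condensin genes, which encode the relatives of cohesin that compact mitotic chromosomes, 0 passed edgeR's test and 0 had an unadjusted p under 0.05 (median log2 fold change 0.06). Smc4, a core ATPase of condensin, had 527.7 and 557.7 CPM at 24 h, against 339.2 and 519.8 CPM in 0 h replicates A and B (log2 fold change 0.34, adjusted p = 0.298 in edgeR's test). Ncaph2, a subunit of condensin II, had 140.1 and 136.5 CPM at 24 h, against 186.0 and 139.3 CPM at 0 h (log2 fold change -0.23, adjusted p = 0.351). With 0 h replicate A left out, the values were 0.061 for Smc4 and -0.012 for Ncaph2 on the log2 scale, neither called. With 0 h replicate B left out they were 0.674 for Smc4, called higher, and -0.432 for Ncaph2, called lower. Smc4 was also called higher with the replicate block (0.369, adjusted p = 0.036 in edgeR's test), and with the block and the trend removed together (0.238, adjusted p = 0.0172). The exons of Ncaph2 overlap those of Sco2 (19.7%) and Tymp (12.7%), which lie on the opposite strand, so its count is uncertain.

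Of 9 genes of the SMC5/6 complex and its partners measured, Smchd1 included, 0 passed edgeR's test and 2 had an unadjusted p under 0.05 (median log2 fold change 0.18). Slf1, which helps to bring that complex to damaged DNA, had 27.06 and 25.78 CPM at 24 h, against 15.95 and 20.28 CPM at 0 h (log2 fold change 0.55, adjusted p = 0.0809 in edgeR's test). Nsmce3, a subunit of the complex, had 32.47 and 32.85 CPM at 24 h, against 45.29 and 39.78 CPM at 0 h (log2 fold change -0.38, adjusted p = 0.109). With the trend on GC content and length removed, both were called in edgeR's test (adjusted p = 0.0104 for Slf1 and 0.0145 for Nsmce3). Slf1 was also called with no filter (adjusted p = 0.0346) and with the replicate block (0.00725) in edgeR's test. DESeq2's Wald test called it too (adjusted p = 0.0277). Nsmce3 was not called in those fits. Without 0 h replicate A the log2 fold changes were 0.381 for Slf1 and -0.286 for Nsmce3, and without 0 h replicate B 0.725 and -0.476. Neither gene was called without a 24 h library. Over these 4 lists, DESeq2's Wald test called 3 genes higher and 1 lower, where 5.99% and 5.53% of all genes were. In limma voom 1 was called higher and 0 lower, where 3.87% and 2.16% of all genes were.

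Once the trend on GC content and length was taken out, 4 of the 39 genes of the 4 lists were called higher and 9 lower in edgeR's test, where 12.6% of all genes were called higher and 12.2% lower. Called higher were Pttg1 (securin), Smc1b, Rec8 and Slf1. Among those called lower were the NIPBL partner Mau2, the separase gene Espl1, Yy1, Ldb1, Zfp143, Smc5, Nsmce3 and Nsmce4a. No condensin gene was called in that fit, in either direction. Without 0 h replicate A, 8 genes of the 4 lists were called higher and 13 lower in edgeR's test, where 16.5% and 15.8% of all genes were. Without 0 h replicate B the numbers were 20 higher and 13 lower, where 23.2% and 27% of all genes were, so that 50.2% of all genes were called in that fit. Pttg1, Smc1b, Rec8 and Slf1 were called higher, and Yy1, Ldb1, Zfp143, Mau2, Nsmce3 and Nsmce4a lower, in all 3 of these fits.

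**Figure D5:**
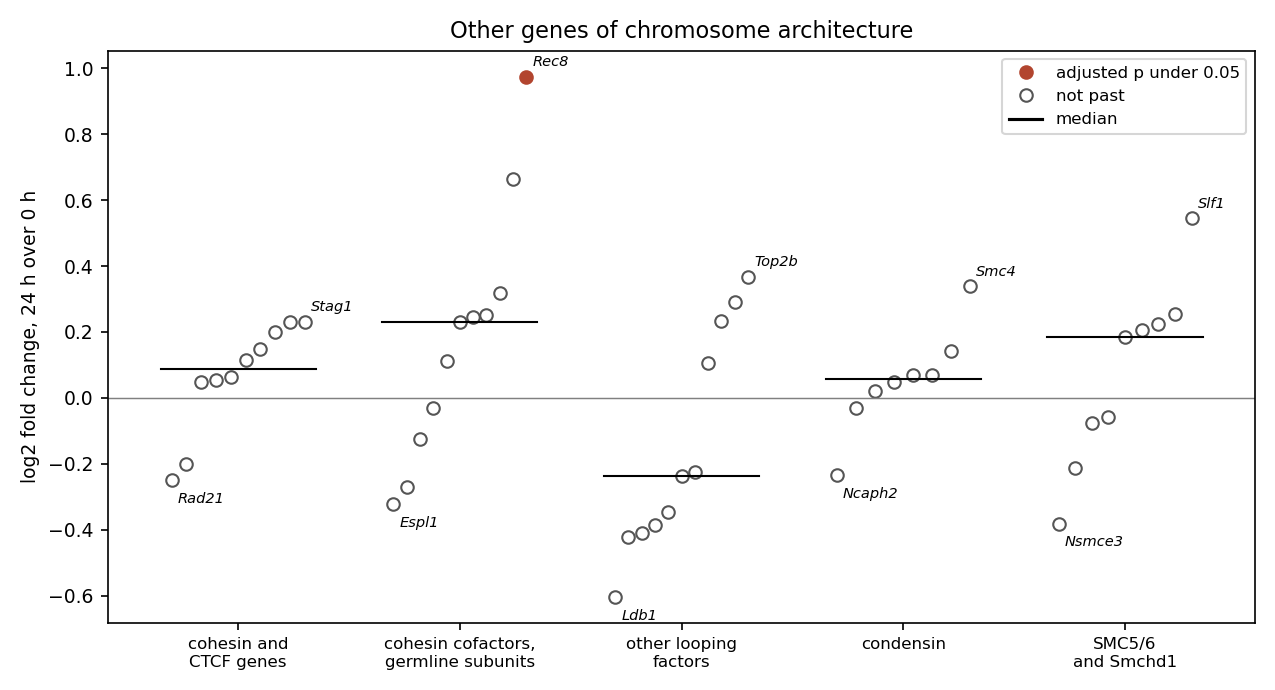
Log2 fold change (24 h over 0 h) of the 10 cohesin and CTCF genes and of the genes in 4 related lists, with filled points for an adjusted p under 0.05 in edgeR's test, open points for genes that did not pass and a line at each list's median. Rec8 (0.97) is the filled point, and the 10 cohesin and CTCF genes lie between -0.25 and 0.23.

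Among 11229 genes with a mean of at least 5 CPM outside these lists, Rpe, Ptp4a2 and Fyttd1 had the profiles nearest to the mean profile of the 10 genes. Likeness was the Euclidean distance between log2 CPM centred over the 4 libraries, which was 0.0131, 0.0184 and 0.0189. Rpe had 106.7 and 106.5 CPM at 24 h, against 93.99 and 111.4 CPM in 0 h replicates A and B. The shape shared with the mean of the 10 genes is a low value in 0 h replicate A (-0.156 for that mean, centred log2 CPM). Ctcf (0.083) and Rad21 (0.064) instead lay above their own means in that library. With 4 libraries, many genes can lie close to a given profile.

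Of the genes named for the guides, Klf5 had a log2 fold change of -0.72 (adjusted p = 0.0567), Klf4 -0.29 (0.223) and Klf2 -0.25 (0.58) in edgeR's test. Klf2 had 147.2 and 152.4 CPM at 24 h, between the 231.8 CPM of 0 h replicate A and the 123.4 CPM of 0 h replicate B. Klf5 had 225.8 and 215.6 CPM at 24 h, against 430.7 and 294.2 CPM at 0 h. Klf4 had 244.3 and 235.6 CPM, against 331.2 and 256.9 CPM. A small insertion or deletion need not alter a transcript's level. Of 7 embryonic stem cell markers, Pou5f1, Zfp42 and Utf1 fell and 4 did not pass, where 2.65% of all genes were called lower. Pou5f1 had 527.2 and 529 CPM at 24 h, against 844.8 and 688.8 CPM in 0 h replicates A and B. Utf1 had 56.13 and 55.28 CPM, against 129.8 and 83.27 CPM, and Zfp42 109.5 and 109.5 CPM, against 153.5 and 145 CPM. Pou5f1 (57.6%) and Utf1 (63.5%) are GC-rich, and Zfp42 is at 46.4%. Of the exon length of Pou5f1, 14.1% overlaps an antisense gene. The markers' summed level was 3452 and 3502 CPM at 24 h, against 4004 and 3840 CPM at 0 h. Of 10 feeder fibroblast markers, Pdgfrb fell, 7 did not pass, and Lum and Dcn were at or near 0 and not tested. Their summed level was 2179 and 2114 CPM at 24 h, against 2769 and 2149 CPM at 0 h, most of it Fn1, which stem cells also express. The part of either marker list in the values of the 10 genes was not tested.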

How the data were processed

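RNA was sequenced in 2 libraries at 24 h and 2 at 0 h, with a stranded mRNA kit, per the labels' protocols. The authors deposited raw counts per Ensembl gene. The submitters' processing notes name TopHat2, HTSeq, DESeq and the build mm10, with neither version nor role. The counting's annotation and strand mode were not given in the sources used here. GENCODE M21 gave symbols, coordinates, lengths and GC content (GRCm38, the assembly that mm10 names); 563 identifiers had no match.

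The members, the related lists and the tests were chosen with earlier results of these data known. Genes were filtered with filterByExpr (minimum count 10, total 15), scaled by TMM and tested across all genes with edgeR 4.0.16 (quasi-likelihood, legacy=TRUE, 2-sided, Benjamini-Hochberg) in R 4.3.3, and the script was tested on simulated data. Intervals use the fit's standard error and degrees of freedom. The labels call the replicates biological; the p-values reflect the spread among these libraries alone. Nothing in the labels ties equal letters to a common clone, so replicates were not paired. Named besides the members were every gene of a related list past 0.05, otherwise the 2 with the smallest p, and the 3 nearest profiles; further genes were named after their values were seen, and 1 gene that the rule names is not reported here. Alternatives were DESeq2 1.42.0, limma 3.58.1 (voom), other scalings, no filter, the replicate letter as a block, a spline trend on GC content and length as an offset, and each library left out. Exon lengths from the longest transcript were added after seeing the data. Figures used matplotlib 3.10.9. A count of 0 allows up to 0.0572 to 0.0652 CPM (3 counts of a library's total; counting error only).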

Additional observations from a re-analysis of the deposited data

How the results depend on the processing

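The direction of Ctcf, Rad21, Smc1a, Stag1 and Stag2 was the same in the 13 alternatives run. With the GC and length trend removed, the log2 fold changes of Smc3 (-0.044), Nipbl (-0.117), Wapl (-0.084), Pds5a (-0.008) and Pds5b (-0.043) turned negative, with -0.042, -0.115, -0.084, -0.008 and -0.044 when the replicate block was added. Leaving out each library in turn, Smc3 ranged between -0.111 and 0.256, Nipbl between -0.126 and 0.236, Wapl between -0.089 and 0.205 and Pds5b between -0.011 and 0.245. Of the 10 genes, 2 were called lower with the trend removed and 2 with the trend and block, against 0 with the block alone, each scaling, no filter, DESeq2 and limma voom. Leaving out each library in turn gave 0 to 8 called higher and 0 to 4 lower. Their median log2 fold change was 0.143 with library size scaling, -0.044 with the trend removed, -0.043 with trend and block, and -0.05 to 0.242 leaving out each library.

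Genes called numbered 1225, and 2589 with no filter, 1994 with DESeq2, 3253 with the replicate block, 4469 with the trend removed, 5431 with trend and block, and 506 to 9416 leaving out each library. Higher calls were 61.1% of these, and 50.7% with the trend removed. Over the related lists 1 gene was called higher and 0 lower, against 0 to 1 lower with other scalings (1 with DESeq2 size factors and 1 with upper quartile), 3 and 2 with no filter, 3 and 1 with DESeq2, 5 and 2 with the replicate block, 4 and 9 with the trend removed, 8 and 11 with trend and block, and 1 to 20 higher and 0 to 13 lower leaving out each library. Over all genes tested, 9.21% were called higher and 8.86% lower with the replicate block, and 15.3% and 14.9% with trend and block. With the trend removed these shares were 12.6% and 12.2%, with no filter 4.61% and 5.1%, and with DESeq2 5.99% and 5.53%. The cause of the differences between settings was not tested. No label ties equal letters to a common clone. The A minus B differences at 24 h and 0 h correlated with r = 0.0616 across genes. That value cannot decide whether equal letters share a clone, because the 0 h difference also followed GC content.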
